A study of Caenorhabditis elegans with 4 samples.

Results

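The genes described here encode the enzymes that make ceramide and that break down ceramide and sphingomyelin in the nematode Caenorhabditis elegans. They were taken by name from the deposited count tables, and all 10 names were found among 46904 genes: the acid ceramidases asah-1 and asah-2, the acid sphingomyelinases asm-1, asm-2 and asm-3, the serine palmitoyltransferase subunits sptl-1, sptl-2 and sptl-3, and the ceramide synthases hyl-1 and hyl-2. RNA came from whole wild-type hermaphrodites of the Bristol N2 strain, about 200 worms in each group, with 2 libraries from worms fed the Escherichia coli strain OP50 and 2 from worms whose labels name OP50 together with Lactiplantibacillus sp. MH-1, a lactic acid bacterium. The sources differ on the worms' age and feeding time: a series-level text has 4-day-old animals fed for 1 day, whereas the sample protocol has 1-day-old animals on the bacterial lawns for 2 days and mentions MH-1 without OP50. The comparison asks how expression differs with the food.

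Sphingolipids are membrane lipids built on a sphingoid base. Serine palmitoyltransferase joins serine to a fatty acyl-CoA in the opening step of synthesis, and ceramide synthases then attach a further fatty acid to the base to give ceramide, the precursor of sphingomyelin and glucosylceramide. In lysosomes, acid sphingomyelinase splits sphingomyelin into ceramide and phosphocholine, and acid ceramidase splits ceramide into a sphingoid base and a fatty acid. C. elegans uses a branched sphingoid base, and it makes branched fatty acids with the elongases elo-5 and elo-6.

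Directions depend on the sample titles. The count column of each of the 4 tables carries a header with the opposite food, and the libraries are grouped here by their titles, as the OP50 libraries (titled OPd4) and the MH-1 libraries (titled OPMHd4, fed OP50 with MH-1 per the treatment label). Under the headers, every "lower" turns into "higher" at the same fold. Totals ranged from 15771890 to 21572225 counts per library. Levels are given as CPM, read counts divided by the library size after TMM scaling (a correction for differences in RNA composition) and expressed per 1000000 counts. On this scale 3 counts are worth between 0.138 and 0.186 CPM. No source states that replicates were separate cultures, so errors and p-values here measure how far these libraries differ, and that spread may be technical. The MH-1 libraries were not a close pair: over genes, the chi-square per degree of freedom between their counts (1 for sampling noise alone) was 24.75, against 10.07 between the OP50 libraries. OP50 + MH-1 replicate 1 stood furthest apart, at 26.47 and 33.59 from the OP50 libraries, while replicate 2 was at 19.61 and 18.93, nearer to them than to its own replicate.

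Of the breakdown enzymes, asah-1 and asm-2 were lower in the MH-1 libraries, while asah-2 and asm-1 had overlapping levels in the 2 groups. asah-1 was 4.09-fold lower and asm-2 2.85-fold lower. Of the 9 members tested, these 2 were called lower and none higher at an adjusted p under 0.05 in a fit over all genes (edgeR quasi-likelihood test, Benjamini-Hochberg over 12640 genes). Over all genes tested, 0.332% were called lower, 1.82% higher and 2.15% in either direction. The members were chosen with results of this same contrast known, so their fold changes, intervals and adjusted p-values are descriptions, and nothing is read from the count against these percentages. asm-3 had too few reads to be tested.

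asah-1 (WBGene00010769, chromosome I, 12505028 to 12508064, plus strand, ce11) is annotated as a lysosomal ceramidase in the deposited tables. Its raw counts were 829 and 1011 with OP50, and 235 and 237 with MH-1. Scaled for depth, the OP50 libraries had 46.5 and 57.2 CPM, and the MH-1 libraries 14.6 and 10.9 CPM. Both libraries of the control food lay well above both of the other, and replicates within a group differed by 1.23-fold and 1.33-fold. The group means were 51.9 ± 7.595 and 12.7 ± 2.56 CPM (SD, n = 2). The fitted log2 fold change was -2.03 ± 0.17 (SE), with a 95% interval from -2.44 to -1.63 and an adjusted p of 0.00936 (edgeR). The log2 fold change lay between -2.24 and -1.83 when any 1 library was left out, and was -2.24 (adjusted p = 0.00737, edgeR) without OP50 + MH-1 replicate 1.

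asah-2 (WBGene00009192, chromosome II, 10139590 to 10141406, plus strand) carries the same ceramidase annotation. Its levels were 10.04 and 14.3 CPM with OP50, and 7.93 and 10.8 CPM with MH-1. The 2 groups overlap, since OP50 replicate 1 lies below OP50 + MH-1 replicate 2. For asah-2 the fit gave a log2 fold change of -0.38 ± 0.24 (SE) and an adjusted p of 0.553 (edgeR). The interval ran from -0.95 to 0.20, which leaves a fall of up to about 2-fold possible.

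asm-2 (WBGene00000212, chromosome X, 11321079 to 11324251, minus strand) is 1 of 3 genes that the tables annotate with acid sphingomyelin phosphodiesterase activity. Their annotated locations include the lysosome and the extracellular region. The OP50 libraries had 17.7 and 15.8 CPM, from 316 and 279 counts, and the MH-1 libraries 5.14 and 6.55 CPM. The groups do not overlap, and OP50 + MH-1 replicate 1 was the lowest library. Means were 16.8 ± 1.36 and 5.85 ± 0.998 CPM (SD, n = 2), and the log2 fold change was -1.51 ± 0.19 (SE), with an interval from -1.97 to -1.05 and an adjusted p of 0.0187 (edgeR). When OP50 + MH-1 replicate 1 was left out, asm-2 had a log2 fold change of -1.35 and an adjusted p of 0.0503 (edgeR), so that asah-1 was then the 1 member called.

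asm-1 (WBGene00000211, chromosome II, 6910031 to 6912697, plus strand) had 8.47 and 6.57 CPM with OP50, and 8.11 and 7.29 CPM with MH-1. The second group lies inside the range of the first. Its log2 fold change of 0.03 ± 0.22 (SE) had an interval from -0.49 to 0.56 and an adjusted p of 0.971 (edgeR). The cyclophilin gene cyn-10 lies on the opposite strand and spans 158 exon bases of asm-1. With 501 to 692 counts per library, cyn-10 had more reads than asm-1, and the sources used here do not state whether counting used strand, so reads in that stretch may be credited to either gene.

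asm-3 (WBGene00000213, chromosome IV, 520214 to 523809, minus strand) was close to the detection limit. It had 13 and 8 counts with OP50 and 8 and 7 counts with MH-1, or between 0.323 and 0.729 CPM. The groups overlap, and it failed the filter on low counts. With that filter removed, the fold change of asm-3 on the log2 scale was fitted at -0.54 ± 0.85 (SE; adjusted p = 0.849, edgeR), so a difference of 2-fold either way was not detectable at this depth.

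**Figure D1:**
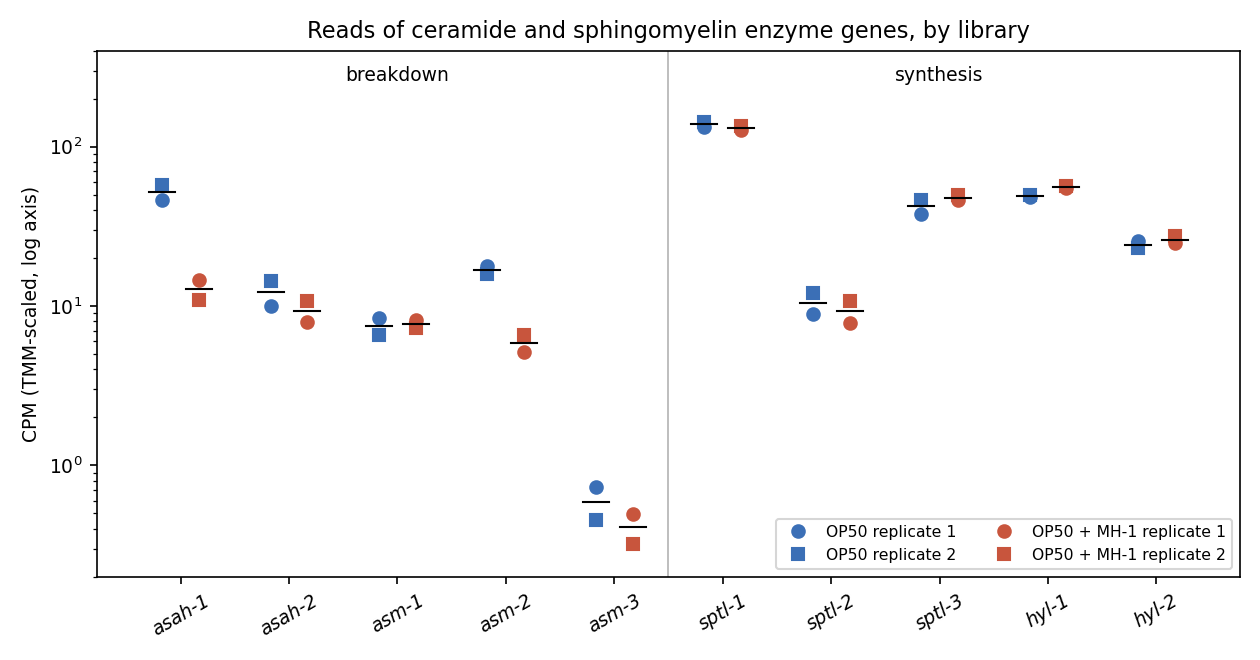
CPM (log axis) of the 10 genes in each of the 4 libraries, grouped by sample title; short lines are the means of 2 libraries. asah-1 and asm-2 are separated between the groups (means 51.9 and 12.7, and 16.8 and 5.85 CPM), while the synthesis genes lie close together.

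Read shares within a family use the same counts again, but do not depend on how libraries are scaled against each other. By share, asah-1 and asm-2 were apart between the groups. asah-1 supplied 82.2% and 80.0% of the reads of the 2 ceramidase genes in the OP50 libraries (95% Wilson intervals 79.8% to 84.5% and 77.7% to 82.1%). In the MH-1 libraries it supplied 64.7% (59.7% to 69.5%) and 50.4% (45.9% to 54.9%). In OP50 + MH-1 replicate 2 the ceramidase reads were thus divided almost evenly between asah-1 and asah-2, and the 2 libraries of that group differ from each other beyond their counting intervals.

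Among the 3 sphingomyelinase genes, asm-2 supplied 65.8% and 69.2% of reads in the OP50 libraries (intervals 61.5% to 69.9% and 64.6% to 73.5%). Its share was 37.4% (31.3% to 43.9%) and 46.3% (40.8% to 51.8%) in the MH-1 libraries. asm-1 held 31.5% and 28.8% of these reads under OP50 and 59.0% and 51.5% under OP50 + MH-1. The gene with the most reads in the family was asm-2 in both OP50 libraries and asm-1 in both MH-1 libraries. In OP50 + MH-1 replicate 2 the intervals of asm-1 (45.9% to 57.0%) and asm-2 overlap. asm-3 held between 1.985% and 3.604% in the 4 libraries. These intervals cover counting error only, reads are not independent molecules, and the shares are not corrected for gene length.

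**Figure D2:**
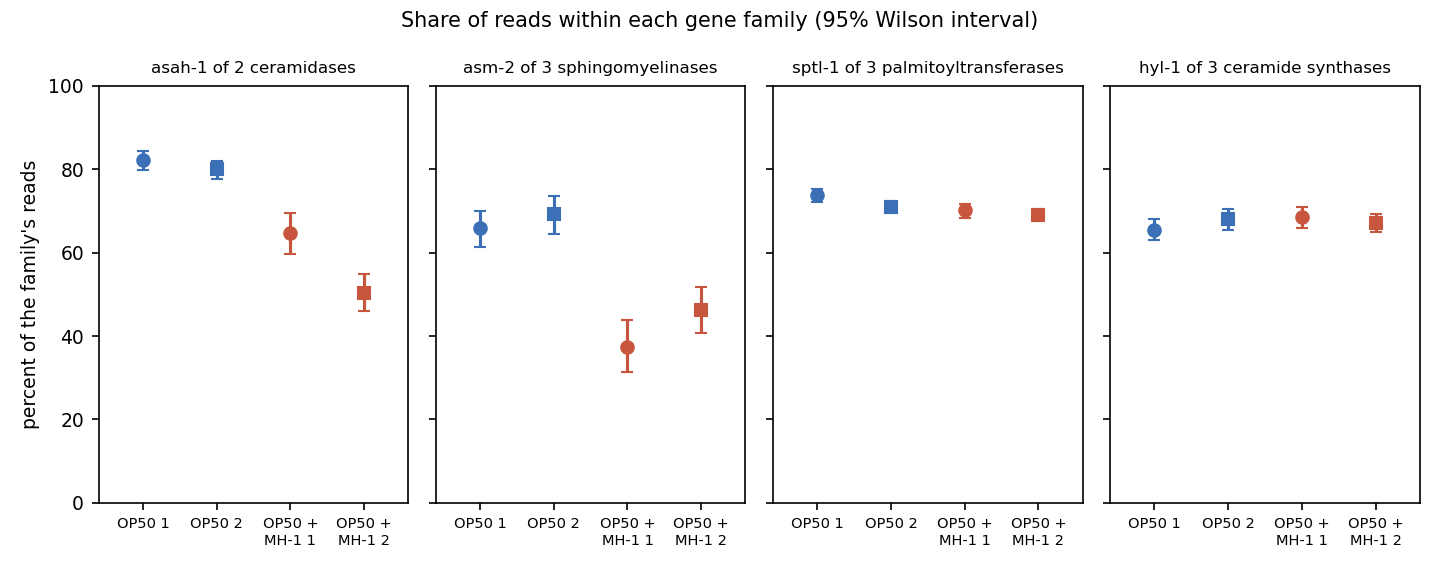
Percent of each family's reads that came from 1 gene, per library, with 95% Wilson intervals (counting error only). asah-1 goes from 82.2% and 80.0% to 64.7% and 50.4%, and asm-2 from 65.8% and 69.2% to 37.4% and 46.3%, while sptl-1 stays between 69.0% and 73.8% and hyl-1 between 65.5% and 68.6%.

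The synthesis enzymes showed no change of that size. None of the 5 genes was called, their log2 fold changes lay between -0.17 and 0.18, and at an unadjusted p under 0.05 the count was also 0 (edgeR). DESeq2 and limma-voom called 0 of them as well. The outermost bounds of their 95% intervals were -0.73 and 0.46, so each of these genes may still have changed by a smaller amount.

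sptl-1 (WBGene00016020, chromosome II, 51072 to 57576, plus strand) is the homologue of the human SPTLC1 subunit that every serine palmitoyltransferase complex holds. Its levels were 132 and 143 CPM with OP50 and 127 and 134 CPM with MH-1, and the groups overlap. The log2 fold change of sptl-1 was -0.08 ± 0.08 (SE), and its interval ran from -0.26 to 0.10.

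sptl-2 and sptl-3 are the homologues of the catalytic partner subunit. sptl-2 (WBGene00018398, chromosome V, 8017947 to 8021715, plus strand) was at 8.97 and 12.0 CPM and at 7.80 and 10.8 CPM, and sptl-3 (WBGene00011932, chromosome V, 13893325 to 13896405, plus strand) at 37.96 and 46.4 CPM and at 46.2 and 49.4 CPM, with the OP50 libraries given before the others. Each pair of groups overlaps. Their log2 fold changes were -0.17 ± 0.24 and 0.18 ± 0.12 (SE). Within this family sptl-3 held 21.2% and 23.0% of reads in the OP50 libraries and 25.6% and 25.4% in the MH-1 libraries, and sptl-2 held between 4.32% and 5.96% in the 4 libraries. sptl-1 held 73.8% and 71.0% with OP50 and 70.1% and 69.0% with MH-1, a small difference whose groups do not overlap.

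Of the ceramide synthases, hyl-1 is known for attaching very long acyl chains and hyl-2 for shorter ones. hyl-1 (WBGene00002043, chromosome IV, 8539123 to 8544403, plus strand) had 48.6 and 50.0 CPM with OP50, and 54.8 and 56.7 CPM with MH-1. Its groups do not overlap, the difference is small, with a log2 fold change of 0.18 ± 0.09 (SE), and the adjusted p was 0.420 (edgeR). The ranges of the 2 groups were apart for 3 of the 9 tested members, against 46.0% of all genes tested.

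hyl-2 (WBGene00002044, chromosome X, 4696952 to 4699461, minus strand) was at 25.5 and 23.0 CPM and at 24.8 and 27.4 CPM, which overlap. Its log2 fold change was 0.10 ± 0.12 (SE). hyl-1 held between 65.5% and 68.6% of the ceramide synthase reads in the 4 libraries, with the third gene, lagr-1, at 1 to 10 counts.

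Summed by role, the 5 breakdown genes took 83.4 and 94.4 CPM in the OP50 libraries and 36.2 and 35.8 CPM in the MH-1 libraries. The 5 synthesis genes took 254 and 275 CPM in the first group and 260 and 278 CPM in the second. The ratio of synthesis to breakdown reads was 3.04 and 2.91 under OP50, and 7.19 and 7.77 under OP50 + MH-1. Without asah-1 and asm-2, the breakdown sum was 19.2 and 21.3 CPM against 16.5 and 18.4 CPM, so these 2 genes made up most of the difference. In RNA from whole worms, fewer cells of a type and less RNA per cell cannot be told apart.

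Levels between genes were compared per length, as CPM divided by the length of the counted exons in kilobases (RPKM). Over the 4 libraries sptl-1 stood highest, at a mean of 83.4 RPKM, and its range did not reach that of the next gene. hyl-1 followed at 31.5, asah-1 at 23.0, sptl-3 at 22.8 and hyl-2 at 19.6 RPKM, and in this run each gene's range overlapped that of its neighbour. asah-2 came next at 8.44 RPKM, below the whole range of hyl-2, followed by asm-2 at 5.85, sptl-2 at 4.88 and asm-1 at 4.07 RPKM, again with overlapping neighbours. asm-3 was lowest at 0.262 RPKM, apart from all others.

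The place of asah-1 in that order differed with the food label. With OP50 it had 33.2 and 40.8 RPKM, above hyl-1 at a mean of 29.6 ± 0.580 RPKM (SD, n = 2). That order is lost per coding length from Ensembl, an alternative added after the data were seen, at 39.4 and 48.5 RPKM for asah-1 and 43.6 and 44.8 RPKM for hyl-1. With MH-1 asah-1 had 10.4 and 7.80 RPKM, close to asah-2 at 6.22 and 8.43 RPKM. asm-2 was at 9.17 and 8.17 RPKM in the OP50 libraries, above asm-1 at 4.53 and 3.51 RPKM. In the other libraries asm-2 was at 2.66 and 3.39 RPKM, below asm-1 at 4.34 and 3.90 RPKM.

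**Figure D3:**
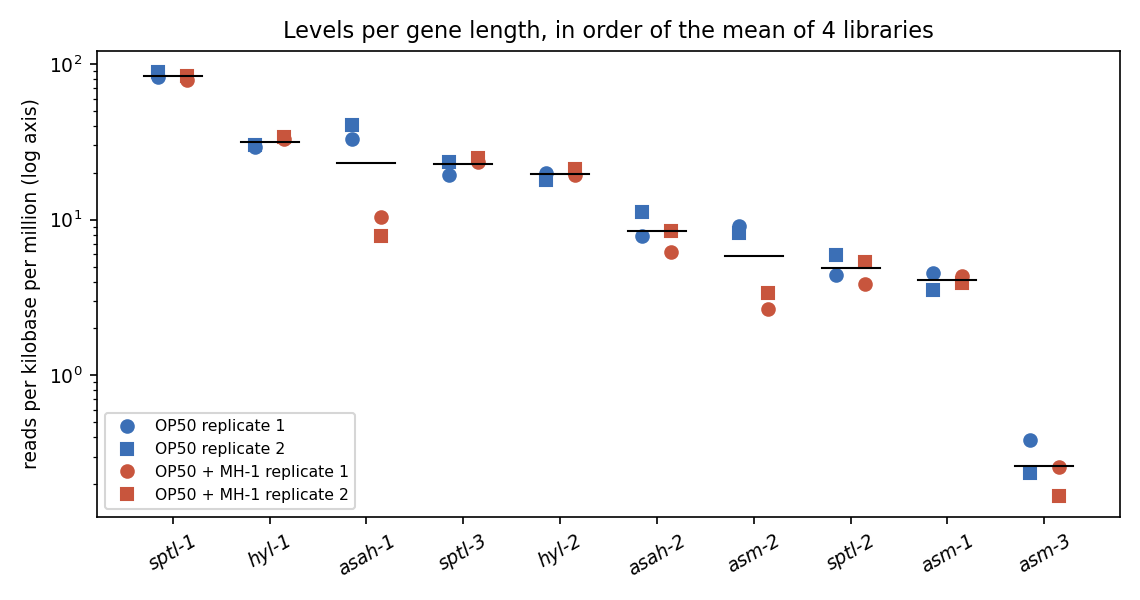
RPKM (log axis) of the 10 genes in each library, ordered by the mean over 4 libraries (black lines). sptl-1 leads at 83.4, asm-3 is lowest at 0.262, and asah-1 and asm-2 are the genes whose 2 groups lie far apart.

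The breakdown genes share annotations that the synthesis genes lack. In the deposited tables the 2 ceramidases and 3 sphingomyelinases carry the term lysosome, and none of the 5 synthesis genes does. They do not share a location: asah-1 lies on chromosome I and asm-2 on X, with the other sphingomyelinases on II and IV.

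Genes with a library profile most like these were found by the root mean square difference of log2 CPM, after centring each gene on its mean over the 4 libraries. Nearest to asah-1 was hrg-7, which encodes a secreted aspartyl protease-like protein with a part in heme signals between tissues, with a root mean square difference of 0.081. Its levels were 193 and 240 CPM with OP50, and 59.4 and 40.1 CPM with MH-1, the same order of the 4 libraries as asah-1. Compared were tested genes of at least 5 CPM in the group where they are higher. The next were the metal transporter smf-3 (0.191), the lysosomal lipase lipl-3 (0.237), F10D2.10 (0.280) and the cathepsin B-like protease cpr-1 (0.281).

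Nearest to asm-2 were F37A8.5 (0.118), the aspartyl protease asp-8 (0.133), cpr-1 (0.154), the collagen col-135 (0.169) and ech-1.1 (0.175). F37A8.5 had 22.9 and 20.3 CPM with OP50 and 8.11 and 9.41 CPM with MH-1. cpr-1 thus stood among the 5 nearest to each gene. Of the 9 different genes, 8 were called lower and ech-1.1 was not (edgeR), a direction that likeness to asah-1 or asm-2 fixes. smf-3, F10D2.10 and ech-1.1 average under 5 CPM over the 4 libraries and entered through their OP50 level. lipl-3 and asp-8 were also under 5 CPM in both MH-1 libraries. With that average as the filter, an alternative chosen after seeing the data, 3 of the 5 genes nearest to asah-1 and 4 of the 5 nearest to asm-2 were shared. C32H11.4 (0.291) and Y71H2AM.25 (0.319) then joined the list of asah-1, and R193.2 (0.236) that of asm-2. With 4 libraries, a near profile says that 2 genes have about the same fold between the groups and about the same order of replicates.

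**Figure D4:**
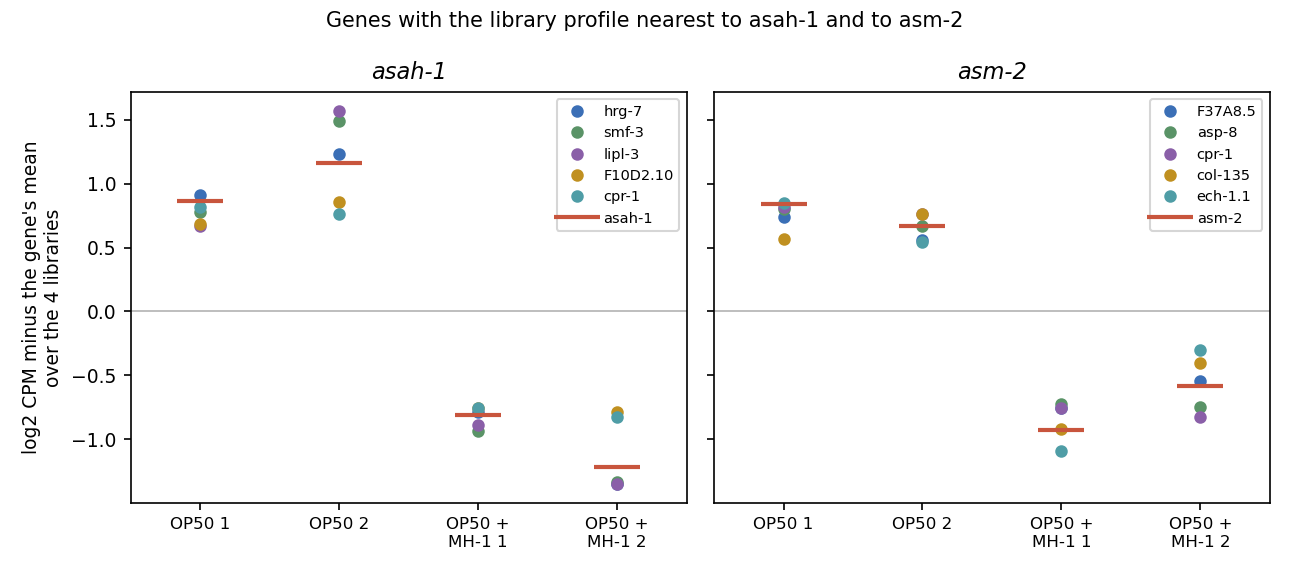
Log2 CPM minus each gene's mean over the 4 libraries, for asah-1 and asm-2 (red lines) and the 5 genes nearest to each (points). hrg-7 lies closest to asah-1, with a root mean square difference of 0.081, and F37A8.5 closest to asm-2, with 0.118.

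Other genes of the sphingolipid pathway and the lysosome were taken from 6 further lists, in which 45 of 46 names were found and 42 genes were tested. The edgeR fit called 0 of them, against 2.15% of all genes tested in either direction, and 4 had an unadjusted p under 0.05. DESeq2 and limma-voom also called 0. With so small a share over all genes, nothing is read from 0 calls, in these lists together or in each list below. Of the 42, 18 had a positive and 24 a negative log2 fold change, with a median of -0.02, against 0.00 over all genes tested, and 30 lay within 0.25 of 0. The 9 tested members had a median log2 fold change of -0.08.

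None of the 7 other tested genes for ceramide and sphingomyelin synthesis was called. The largest log2 fold change there was that of ttm-5, a dihydroceramide desaturase homologue, at 1.05 ± 0.43 (SE, adjusted p = 0.341, edgeR). The sphingomyelin synthase sms-1, named after its values were seen, had 132 and 144 CPM with OP50, and 128 and 124 CPM with MH-1.

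None of 8 genes for making glucosylceramide and glycolipids was called, and the glycosyltransferase gene bre-2 had the largest value, 0.62 ± 0.53 (log2 ± SE). None of the 4 tested sphingosine phosphate genes was called either. The largest value among them was -0.12 ± 0.09 for spl-1, the sphingosine phosphate lyase. The 4 genes that supply branched fatty acids lay between -0.04 and 0.21, with elo-6 at 0.21 ± 0.32 (log2 ± SE).

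The glycolipid breakdown genes, which like asah-1 encode acid hydrolases or their helpers, were not called in 6 of 6 tested cases. gana-1, a homologue of human alpha-galactosidase, had the largest log2 fold change, 1.02 ± 0.25 (SE, adjusted p = 0.119, edgeR), opposite in sign to asah-1. Its levels were 2.86 and 2.94 CPM with OP50, and 6.01 and 5.77 CPM with MH-1. The saposin-like gene spp-10, named after its values were seen, had 147 and 141.6 CPM with OP50, and 152 and 133 CPM with MH-1.

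None of 13 lysosomal membrane, hydrolase and regulator genes was called. That list holds no lipase or cathepsin. The lipase gene lipl-3 and the cathepsin B-like gene cpr-1, given above for their likeness to asah-1, were called lower (edgeR). ncr-2, a homologue of the human cholesterol transporter NPC1, had the largest log2 fold change, -0.78 ± 0.60 (SE), at 0.648 and 0.378 CPM on average. The gene for HLH-30, the worm homologue of the lysosomal regulator TFEB, was named after its values were seen; its log2 fold change was -0.13 ± 0.19 (SE). The 13 genes summed to 578 CPM in each of the OP50 libraries, and to 552 and 577 CPM in the others.

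**Figure D5:**
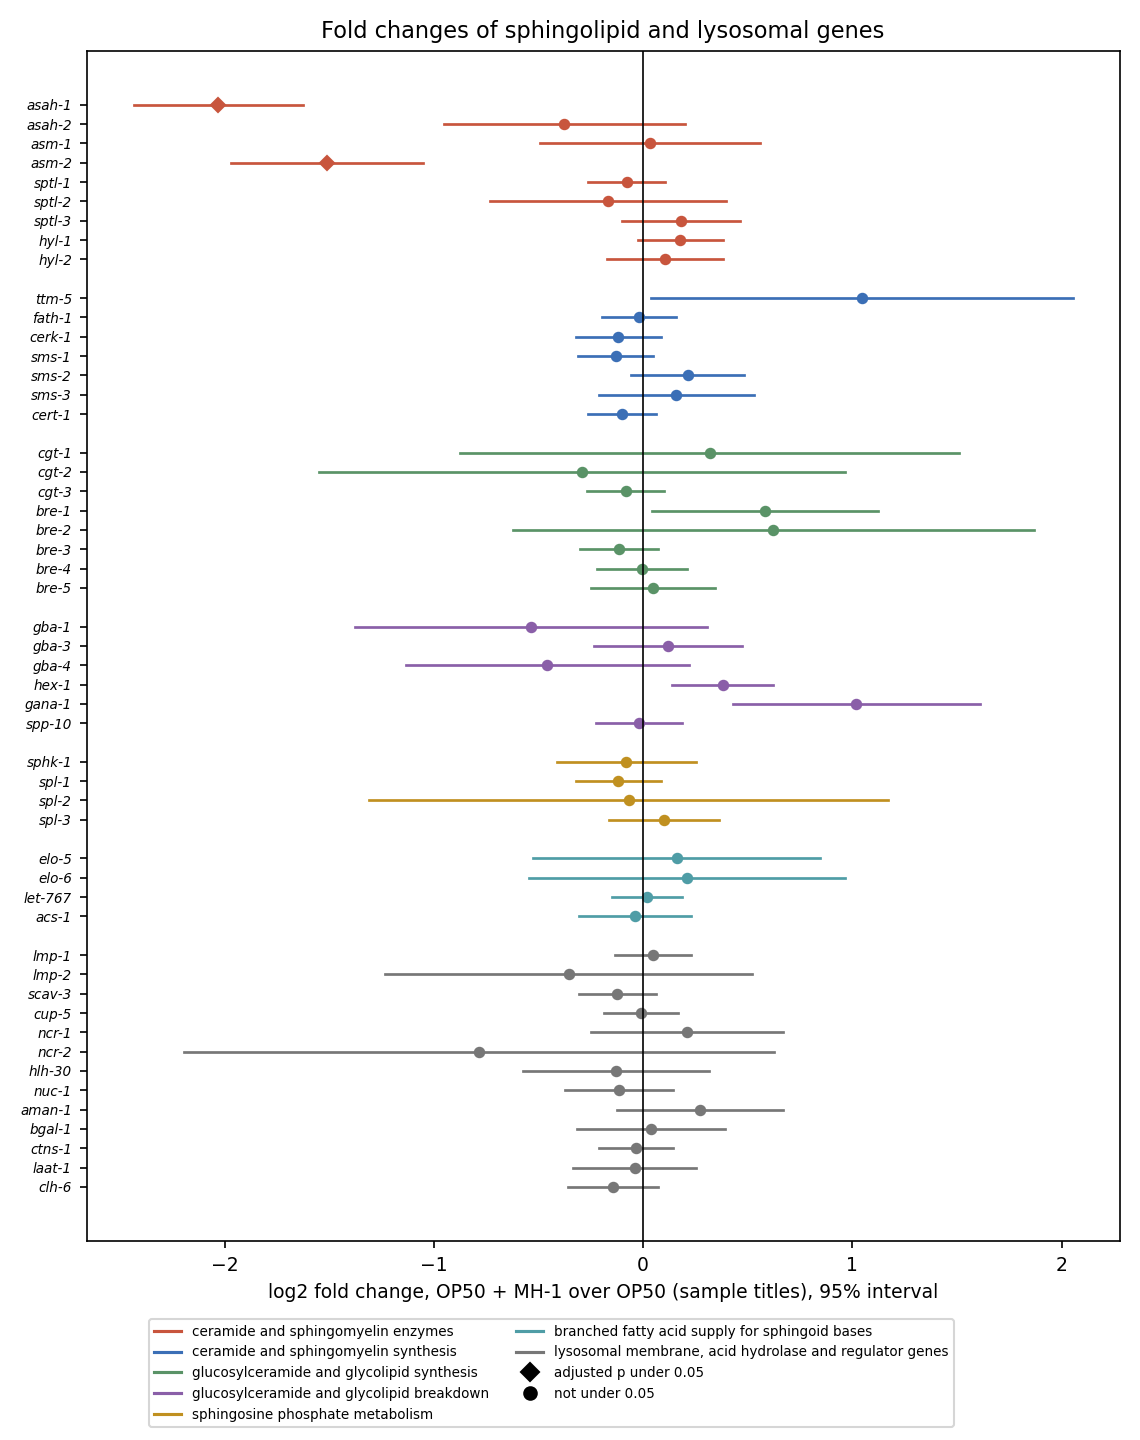
Log2 fold changes (OP50 + MH-1 over OP50 by sample title) with 95% intervals for 9 tested ceramide and sphingomyelin enzyme genes and 42 genes of 6 other lists. asah-1 (-2.03) and asm-2 (-1.51) carry the diamonds of an adjusted p under 0.05, and the other genes do not.

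A further list was taken from annotation rather than gene by gene. The deposited tables give the ontology term sphingolipid metabolic process to 35 genes, of which 10 are the members. Of the 35 genes, 31 were tested, and 2 were called lower, asah-1 and asm-2 (edgeR). The members are left out of what follows, and with them these 2 calls. Of the other 25 genes, 22 were tested and none was called (edgeR), against 2.15% of all genes tested in either direction. Nothing is read from that absence in a list of this size. In the edgeR fit 1 had an unadjusted p under 0.05, and DESeq2 and limma-voom called 0. The median log2 fold change of the 22 was -0.04, with values from -0.54 to 1.05. This list was added after the data were seen and shares many genes with the lists above.

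Markers of several tissues differed between the same libraries. Of 12 intestine markers none was called (edgeR), 5 had an unadjusted p under 0.05, DESeq2 called 1 and limma-voom 0. Of those 5, 4 were lower (ges-1, ifb-2, asp-1 and mtl-2) and 1 higher (pgp-1) in the MH-1 libraries. Over the 12 markers the ranges were apart for 5 lower and 3 higher genes, against 21.6% lower and 24.4% higher over all genes tested. The 12 markers summed to 3064 and 3244 CPM in the OP50 libraries and to 2198 and 2513 CPM in the others, mostly through the protease gene asp-1. Without asp-1 the sums were 1231 and 1149 CPM against 1097 and 1087 CPM. Of 12 embryo markers 4 were called higher in the MH-1 libraries (hch-1, pha-4, sym-1 and nhr-25, edgeR), against 1.82% of all genes tested. DESeq2 and limma-voom also called 4. Of the 12, 8 had a positive log2 fold change and 4 a negative one (end-1, end-3, pal-1 and ceh-51, each with overlapping ranges). The list summed to 275 and 256 CPM against 412 and 396 CPM. Of 9 epidermis and molting markers 7 were called higher by edgeR, 7 by DESeq2 and 4 by limma-voom, with sums of 104 and 61.8 CPM against 429 and 296 CPM. The 2 that edgeR did not call were mlt-10 and rol-6, and rol-6 had a negative log2 fold change. Of 12 oocyte and germline markers 0 were called (edgeR), 2 were lower at an unadjusted p under 0.05 (edgeR), and DESeq2 called 1 and limma-voom 0. All 12 had a negative log2 fold change, and the ranges were apart for 10 lower and 0 higher genes. These markers summed to 11822 and 11887 CPM against 9899 and 10403 CPM. The 7 sperm markers summed to between 2.30 and 3.62 CPM, with msp-10 and msp-142 at 0 counts in 3 libraries. The part of these tissue differences in the values of asah-1 and asm-2 was not tested.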

How the data were processed

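The authors deposited 1 table of raw counts of reads per gene for each library, whole numbers for 46904 genes with exon coordinates and lengths, per the file headers. Poly(A) RNA was made into strand-preserving libraries, per the labels' protocols. The submitters' processing notes name Trim Galore 0.6.7, Trimmomatic 0.39, cutadapt 3.7, STAR 2.7.10a, featureCounts 2.0.1 and the build ce11 (WBcel235). The sources used here state neither the strand setting nor the treatment of reads with several matches.

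Counts were fitted in R 4.3.3 with edgeR 4.0.16 (filterByExpr with minimum count 10 and minimum total 15, TMM, glmQLFit, glmQLFTest, group as the only term), with Benjamini-Hochberg adjustment over the 12640 genes kept and a threshold of 0.05. The standard error is the log2 fold change divided by the square root of F, and intervals use the test's degrees of freedom. With 2 libraries a group, an exact permutation test cannot reach that threshold. Wilson intervals were computed with scipy 1.17.1. Of these steps, only the edgeR fit was tested on simulated counts. Alternatives covered scaling, filter, tool (DESeq2 1.42.0, limma-voom 3.58.1), the dispersion estimate, the replicate number as a block, the loss of any 1 library and the gene length.

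The members and lists were chosen with earlier results of these data known. Named besides the members are called genes of each pathway list, or the gene with the largest log2 fold change where none was called, and the 5 tested genes of at least 5 CPM in the higher group nearest in profile to asah-1 and to asm-2 (prior count 2). Marker genes were named after their values were seen. sms-5 and cert-1 were matched through reference tables, and tag-38 was not matched. Coordinates are those of the deposited tables. In Ensembl release 115, on the same build, 3 of the 10 members have the same ends.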

Additional observations from a re-analysis of the deposited data

How the results depend on the processing

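The 2 calls among the members, asah-1 and asm-2, were kept under all 9 alternatives of scaling, filter, tool, dispersion and block. The largest adjusted p was 0.0259 for asm-2 and 0.0137 for asah-1 (both limma-voom). Without the filter the adjusted p of asah-1 was 1.2e-45, against 0.00936 in the main fit (edgeR). These alternatives refit the same 4 libraries for genes chosen with this contrast known, so they are not independent support. With single libraries left out, between 1 and 2 members were called lower, asm-2 being lost without OP50 + MH-1 replicate 1. Such a fit leaves 1 library alone in its group, which is assumed to vary like the other group. Signs near 0 were unstable there: the log2 fold change ranged from -0.14 to 0.23 for asm-1, from -0.43 to 0.054 for sptl-2 and from -0.44 to 0.65 for elo-6.

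Over all genes, 230 were called higher and 42 lower, against 815 and 297 without the filter, 346 and 94 with DESeq2, 135 and 27 with limma-voom, and between 99 and 395 higher and 20 and 95 lower with a library left out. The titles' replicate numbers name no shared culture, and the deviations of same-numbered libraries from their group means correlated at 0.209 across genes. The replicate block gave 450 higher and 109 lower genes, and 1 of the 42 other pathway genes, hex-1, was called higher (log2 fold change 0.38, adjusted p = 0.0472, edgeR). Without the filter, 3 of those genes were higher (ttm-5, gana-1 and hex-1) and 1 lower (gba-4). With a library left out, between 0 and 1 were higher (elo-5 without OP50 replicate 2) and between 0 and 1 lower (gba-4 without OP50 replicate 1). The cause of these shifts was not tested.

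With Ensembl's coding length, an alternative added after the data were seen, mean levels were 97.6 RPKM for sptl-1, 47.1 for hyl-1, 28.8 for sptl-3 and 25.5 for hyl-2, asah-1 and sptl-3 changed places, and in the OP50 libraries asah-1 no longer stood above hyl-1. Coding lengths from RefSeq proteins were not run.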
